A study of Rattus norvegicus with 6 samples.

Results

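Collagen genes were examined in cerebral resistance arteries of Dahl rats fed low or high salt, with the genes that modify, fold, trim and cross-link their products. Members were all symbols on the array of the form Col, number, a, number, plus 12 named genes of collagen processing. This gave 40 genes of 10411 measured, 29 collagen chains and 11 processing genes; Loxl2, also named in the rule, was not measured here. The chains were divided by class into 10 fibrillar, 7 network-forming, 5 FACIT (fibril-associated) and 7 other chains. Where a gene had several probe sets, the brightest on average stood for it, and values are log2 units as deposited.

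The low salt group ate chow with 0.4% NaCl for 12 weeks from 7 weeks of age. The high salt group ate 8% NaCl from the same age, for 11 weeks by one label and 12 by another. All were Dahl rats, bred for their blood pressure response to salt, and all had eaten low salt chow before the study. The comparison asks which genes differ in these arteries in salt-induced hypertension. Each of the 3 arrays per diet held RNA pooled from 3 rats, from whole dissected branches of the basilar artery and the circle of Willis. Arteries were snap frozen or kept in RNAlater, with no record of which, and the RNA was amplified in a pair of rounds. The 3 high salt arrays correlated at 0.980 to 0.987 over all probe sets and the 3 low salt arrays at 0.919 to 0.968. The low salt side therefore carries more of the error below. Closeness did not follow diet for every array. Low salt replicate 2 correlated at 0.976 to 0.988 with the high salt arrays, but at 0.919 and 0.968 within its own diet. For low salt replicate 3 these values were 0.976 to 0.980, then 0.967 and 0.968. Low salt replicate 1 came closest to low salt replicate 3 (0.967), and reached 0.926 to 0.945 with high salt. In whole dissected branches fewer cells of a type and less RNA per cell cannot be told apart.

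Collagens are triple helices of 3 chains. The chains are made in the endoplasmic reticulum, where prolyl hydroxylases stabilise the helix and lysyl hydroxylases prepare the sites for sugars and cross-links. Serpinh1 (HSP47) holds the helix together on its way out. Outside the cell Bmp1, helped by Pcolce, trims fibrillar procollagen, and lysyl oxidases cross-link the fibres. Fibrillar collagens I, III and V carry load in the artery's media and adventitia, and collagen IV forms the sheet of the basement membrane around muscle and endothelium.

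The member furthest to the higher side was P4hb (0.96), part of an enzyme that acts on the chains inside the cell. Next came a chain, Col6a3 (0.76). All 6 hydroxylase subunits were higher after high salt, by 0.35 to 0.96 log2 units with a median of 0.66. Of the 29 chains they act on 18 were higher, with a median of 0.08. Col6a3, Col8a1 (0.58) and Col18a1 (0.55) lay within the range of the hydroxylases. All 6 hydroxylase genes lie in the brightest 2 of 5 quintiles of genes, and of the 15 chains there 12 were higher, with a median of 0.23. The difference between hydroxylases and chains was not tested. Lox, which cross-links the finished fibre, was 0.50 lower, and the minor fibrillar chain Col5a3 was 0.53 lower. None of these passed the test over all probe sets. By limma with Benjamini-Hochberg adjustment 0 of 40 members were called, as were 0% of all genes, and the lowest adjusted p of a member was 0.803.

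Of the 40 members 28 were on the higher side, and the median difference was 0.20, against 60.0% of all genes with a median of 0.07. At an unadjusted p below 0.05 (limma) stood 3 members, all higher (P4hb, Plod1 and Plod3), where 5.72% of all genes stood there and were higher and 0.711% were lower. For 8 members the 3 values of one diet all lay outside those of the other. Of these 6 were higher (P4ha1, P4hb, Plod1, Plod3, Loxl1 and Col5a1) and 2 lower (Col5a3 and Col19a1), beside 8.64% and 3.32% of all genes. Bright genes as a whole were shifted upward. Ranked by mean value, the dimmest quintile had a median difference of -0.04. The brightest quintile stood at 0.26; it holds 21 of the 40 members, whose own median was 0.24. Less the median of its own quintile, 19 of 40 members were higher, with a median of -0.02. After quantile normalization 23 were higher and the median was 0.02.

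**Figure D1:**
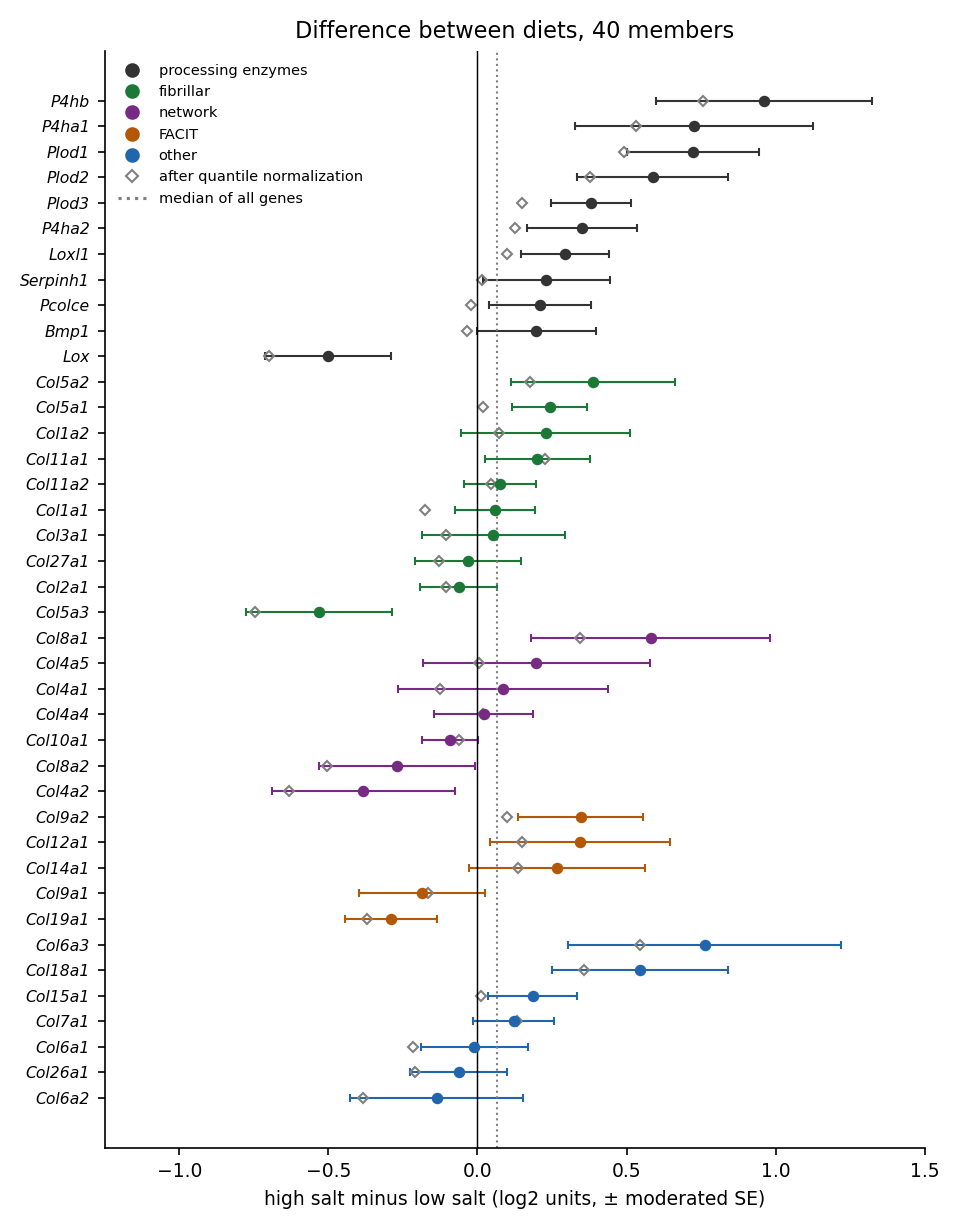
Difference between diets for each of the 40 members, by class (points, the high salt mean less the low salt mean, log2 units; bars, moderated SE; open diamonds, the difference after quantile normalization; dotted line, the median of all genes, 0.07). The 6 hydroxylase subunits lie from 0.35 to 0.96, and the chains spread on both sides of 0, from -0.53 for Col5a3 to 0.76 for Col6a3.

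For 4 of the 6 hydroxylase genes the diets did not overlap, and the regions before their starts are shown to set the members that stood apart side by side. Each is the 250 bases before 1 annotated transcript start, read in the gene's direction, from RefSeq on the build GRCr8: chr20:27844796-27845045 (plus strand) for P4ha1, chr10:106346912-106347161 (minus) for P4hb, chr5:163650738-163650987 (minus) for Plod1 and chr12:25323632-25323881 (minus) for Plod3. Capitals mark 3 motifs on either strand. These are CCAAT, the core letters of NF-Y sites, then GGGCGG of Sp1 sites, and ACGTG, a form of the core bound by hypoxia-inducible factors. None of the motifs contains another.
P4ha1: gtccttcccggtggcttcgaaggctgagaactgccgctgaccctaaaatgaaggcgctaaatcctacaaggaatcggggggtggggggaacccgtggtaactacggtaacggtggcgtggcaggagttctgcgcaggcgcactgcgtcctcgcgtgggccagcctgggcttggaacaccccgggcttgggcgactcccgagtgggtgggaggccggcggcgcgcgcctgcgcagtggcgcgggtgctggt
P4hb: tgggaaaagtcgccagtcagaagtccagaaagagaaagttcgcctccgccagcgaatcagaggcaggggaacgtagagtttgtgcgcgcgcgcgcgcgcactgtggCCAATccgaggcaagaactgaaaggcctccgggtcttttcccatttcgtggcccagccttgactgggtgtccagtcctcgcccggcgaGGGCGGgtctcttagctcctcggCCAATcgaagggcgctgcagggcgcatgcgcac
Plod1: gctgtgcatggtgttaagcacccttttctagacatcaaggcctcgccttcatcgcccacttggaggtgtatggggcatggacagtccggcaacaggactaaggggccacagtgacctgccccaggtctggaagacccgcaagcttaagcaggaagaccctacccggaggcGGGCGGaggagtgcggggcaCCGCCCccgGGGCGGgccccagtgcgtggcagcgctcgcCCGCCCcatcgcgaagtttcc
Plod3: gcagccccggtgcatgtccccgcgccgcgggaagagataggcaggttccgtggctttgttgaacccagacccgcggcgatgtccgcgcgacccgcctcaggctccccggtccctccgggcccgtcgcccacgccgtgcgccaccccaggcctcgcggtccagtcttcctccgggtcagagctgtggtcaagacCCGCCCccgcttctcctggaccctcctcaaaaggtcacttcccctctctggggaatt

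The 4 regions are alike in base composition (62.8 to 69.6% G and C) and unlike in motifs. The P4hb, Plod1 and Plod3 windows end at the outer end of the annotated gene. The P4ha1 window lies 60.4 kb inside its gene, which spans chr20:27784696-27895785, so that it is not the region before the outermost start. P4hb held 2 CCAAT and 1 GGGCGG, Plod1 held 4 GGGCGG, Plod3 held 1, and P4ha1 held 0 of any. The reference table held 32 members, 20 with the start at the outer end of the gene and 12 with it inside. GGGCGG was found in 5 of 6 hydroxylase genes and in 12 of 23 chains, beside 32.4% of all 27457 gene starts. This motif holds only G and C, and the gene starts were not matched to the members in base composition. CCAAT was found in 1 of 6 hydroxylase genes and 6 of 23 chains (34.3% of all). ACGTG was found in 2 of 6, P4ha2 and Plod2, and in 2 of 23 chains (16.9% of all). A match describes the letters of the window only.

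Prolyl 4-hydroxylase is built from a catalytic subunit, P4ha1 or P4ha2, and P4hb, which is also the protein disulfide isomerase of the endoplasmic reticulum. P4hb read 10.22, 11.59 and 11.39 on low salt replicates 1 to 3 and 11.98, 12.03 and 12.06 on high salt. All high salt arrays lay above all low salt ones, and low salt replicate 1 lay far below the other 2. The difference was 0.96 ± 0.36 (SE), or 1.94-fold (limma, unadjusted p = 0.0390, adjusted p = 0.803), and 0.54 without low salt replicate 1. P4ha1 read 8.69, 10.26 and 9.88 on low salt and 10.33, 10.34 and 10.33 on high salt. Its high salt arrays agreed to within 0.01 (SD), and low salt replicate 2 came close to them. The difference was 0.73 ± 0.40 (unadjusted p = 0.121, limma) and 0.26 without low salt replicate 1. P4ha2 read 10.40, 10.86 and 10.73 on low salt and 11.24, 10.73 and 11.07 on high salt, with overlap at high salt replicate 2. It differed by 0.35 ± 0.18, or 0.12 after quantile normalization, and its other, dimmer probe set gave -0.07 ± 0.10.

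The lysyl hydroxylases were higher as well. Plod1, the main hydroxylase of helix lysines, read 9.31, 10.16 and 9.88 on low salt and 10.50, 10.49 and 10.53 on high salt. As with P4ha1 the high salt arrays were nearly identical and above all low salt arrays. The difference was 0.72 ± 0.22, or 1.65-fold, with the lowest unadjusted p of all members (0.0178, limma; adjusted p = 0.803), and it was 0.49 after quantile normalization and again 0.49 when low salt replicate 1 was dropped. Plod2, which hydroxylates the telopeptide lysines used for cross-links, read 10.48, 10.86 and 11.17 on low salt and 11.41, 11.07 and 11.80 on high salt, a difference of 0.59 ± 0.25. Its diets overlapped at high salt replicate 2 alone, and the difference was 0.38 after quantile normalization. Plod3, which also adds sugars to hydroxylysine, read 10.72, 10.45 and 10.81 on low salt and 10.93, 11.17 and 11.02 on high salt. Here low salt replicate 1 was not the lowest array. The difference was 0.38 ± 0.13 (unadjusted p = 0.0300, limma) and 0.15 after quantile normalization.

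Low salt replicate 1 was the lowest of the 6 arrays for 5 of the 6 hydroxylase genes. All 6 stayed higher with any 1 array left out, after both scalings and less their quintile's median. Quantile normalization put their median at 0.44, subtraction of the quintile medians at 0.39, and removal of low salt replicate 1 at 0.41. Of the 15 members with a further probe set, 11 had the same sign in both. Array spread was larger on low salt for 31 of 40 members (77.5%), as for 71.0% of all genes.

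**Figure D2:**
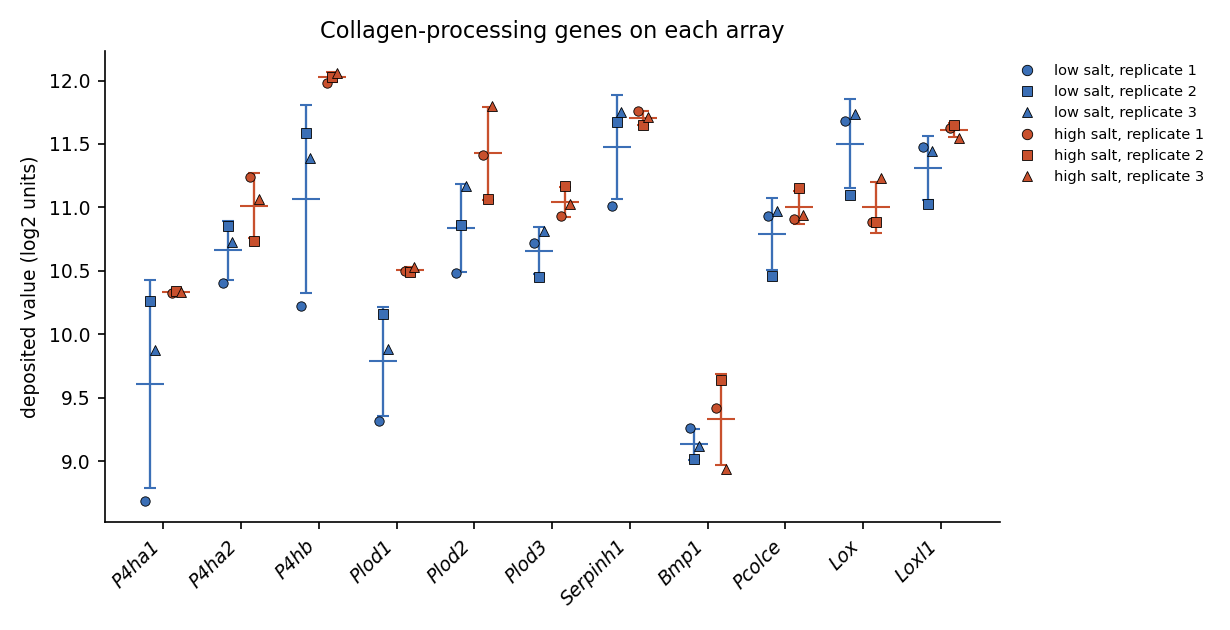
Deposited values (log2 units) of the 11 collagen-processing genes on each array, blue for low salt and orange for high salt, with a symbol per replicate number; bars show the mean and SD of 3 arrays. The high salt arrays of P4ha1, P4hb and Plod1 lie close together above the low salt arrays, low salt replicate 1 is lowest for these genes, and Lox runs the other way.

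The chaperone and the genes of propeptide removal overlapped between diets. The chaperone Serpinh1 read 11.01, 11.67 and 11.75 on low salt and 11.76, 11.65 and 11.71 on high salt, a difference of 0.23 ± 0.21 that was -0.00385 without low salt replicate 1. The procollagen C-proteinase Bmp1 read 9.26, 9.02 and 9.12 on low salt and 9.42, 9.64 and 8.93 on high salt (0.20 ± 0.20). Its enhancer Pcolce read 10.93, 10.46 and 10.98, then 10.91, 11.15 and 10.94 (0.21 ± 0.17). Quantile normalization put Bmp1 at -0.04 and Pcolce at -0.02.

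The lysyl oxidases went in opposite directions. Lox, the founding member, read 11.68, 11.10 and 11.73 on low salt and 10.88, 10.89 and 11.24 on high salt. The diets overlapped only in that low salt replicate 2 lay below high salt replicate 3. The difference was -0.50 ± 0.21 (limma, unadjusted p = 0.0559, adjusted p = 0.803), between -0.70 and -0.39 with 1 array left out, and -0.70 after quantile normalization. A further Lox probe set was also lower, by -0.33 ± 0.17. Loxl1, the family member needed to maintain elastic fibres, read 11.47, 11.02 and 11.44 on low salt and 11.62, 11.65 and 11.55 on high salt, with no overlap. It differed by 0.29 ± 0.15, and by 0.10 after quantile normalization. The median gene of its brightness quintile stood at 0.26.

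Among the fibrillar chains, 7 of 10 were higher, with a median of 0.07, or -0.06 after median centring and -0.04 after quantile normalization. By their main probe sets the chains of collagen I and III, the bulk of the fibres, differed by less than 1 SE. Col1a1 read 9.68, 10.03 and 10.03 on low salt and 9.90, 10.08 and 9.93 on high salt. Its difference was 0.06 ± 0.14. Col1a2 read 12.12, 12.56 and 12.26 on low salt and 11.94, 12.84 and 12.84 on high salt (0.23 ± 0.28). Its other probe set gave 0.64 ± 0.37 with no overlap, on values of 10.70, 12.13 and 11.83 against 12.15, 12.13 and 12.29. Col3a1 read 11.94, 12.49 and 12.69 on low salt and 12.12, 12.53 and 12.62 on high salt. Its difference was 0.05 ± 0.24. The signs for Col1a1 and Col3a1 turned after both scalings.

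Collagen V, a minor partner inside collagen I fibrils that limits their width, had chains on both sides. Col5a1 read 10.46, 10.80 and 10.70 on low salt and 11.01, 10.81 and 10.86 on high salt, without overlap but with 0.24 ± 0.13 between diets and 0.02 after quantile normalization. Col5a2 read 10.56, 11.25 and 11.56 on low salt and 11.48, 11.34 and 11.72 on high salt (0.39 ± 0.27, or 0.10 ± 0.24 by its other probe set). Col5a3 read 9.51, 8.60 and 8.77 on low salt and 8.44, 8.47 and 8.38 on high salt, so that every high salt array lay below every low salt one. The difference was -0.53 ± 0.25 (limma, unadjusted p = 0.0751, adjusted p = 0.803). It was -0.26 without low salt replicate 1, the highest array, and -0.75 after quantile normalization.

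**Figure D3:**
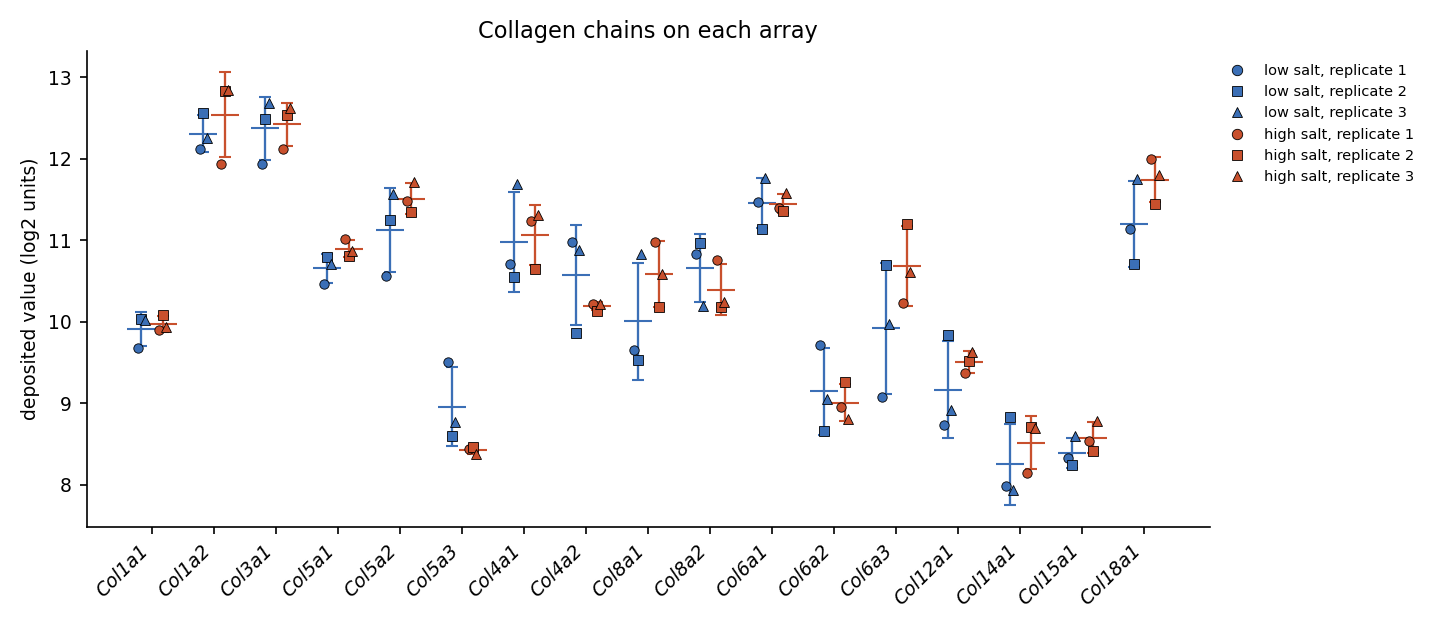
Deposited values (log2 units) of 17 collagen chains on each array, blue for low salt and orange for high salt, with a symbol per replicate number; bars show the mean and SD of 3 arrays. The diets overlap for most chains; Col5a3 is lower and Col5a1 higher on all high salt arrays, and low salt arrays are spread widely for Col6a3, Col8a1 and both collagen IV chains.

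The network-forming chains were divided as well. Their median was 0.02, or -0.11 after median centring, and 4 of 7 were higher. Col4a1 and Col4a2 make up the common collagen IV of vessel basement membranes. They lie head to head and share the stretch between their start sites, shown here because both genes are read from it. It covers chr16:84885521-84885596 of GRCr8 (RefSeq), 76 bases with 78.9% G and C, printed on the plus strand, that of Col4a1. Capitals mark GGGCGG, here as its reverse complement.
Col4a1 and Col4a2: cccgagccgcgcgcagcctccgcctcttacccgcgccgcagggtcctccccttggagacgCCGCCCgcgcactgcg

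Col4a1 read 10.71, 10.55 and 11.69 on low salt and 11.24, 10.64 and 11.31 on high salt. Col4a2 read 10.98, 9.86 and 10.88 on low salt and 10.21, 10.14 and 10.22 on high salt. Both overlapped between diets, and they differed by 0.08 ± 0.35 and -0.38 ± 0.31. The sign for Col4a1 turned after both scalings, and its other probe set gave 0.45 ± 0.36. With 1 array left out Col4a2 ran from -0.74 (without low salt replicate 2) to -0.18 (without replicate 1), and it was -0.23 without replicate 3. Col4a5, of another basement membrane network, read 10.94, 12.14 and 12.19 on low salt and 11.89, 11.67 and 12.31 on high salt (0.20 ± 0.38). It was -0.21 without low salt replicate 1.

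Collagen VIII, a short-chain network collagen of the artery wall known from endothelium and migrating muscle cells, had chains on both sides of 0. Col8a1 read 9.65, 9.54 and 10.83 on low salt and 10.98, 10.18 and 10.59 on high salt, a difference of 0.58 ± 0.40. Col8a2 read 10.83, 10.97 and 10.19 on low salt and 10.76, 10.18 and 10.25 on high salt, a difference of -0.27 ± 0.26. Low salt replicate 3 was out of step with the other 2 low salt arrays in both genes, and without it Col8a1 differed by 0.99. Without low salt replicate 2 Col8a1 differed by 0.35, without high salt replicate 1 by 0.38, and with array weights by 0.00066. Col8a2 ran from -0.51 without low salt replicate 3 to -0.12 without replicate 2.

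Of the FACIT chains, which sit on fibril surfaces, 3 of 5 were higher. Col12a1 read 8.73, 9.84 and 8.92 on low salt and 9.37, 9.52 and 9.63 on high salt (0.34 ± 0.30), and was 0.13 without low salt replicate 1 and 0.68 without replicate 2. Col14a1 read 7.99, 8.83 and 7.94 on low salt and 8.14, 8.71 and 8.70 on high salt (0.27 ± 0.30). Both were highest on low salt replicate 2. Col9a2, best known from cartilage, read 9.68, 9.31 and 8.92 on low salt and 9.80, 9.61 and 9.54 on high salt (0.35 ± 0.21, and 0.10 after quantile normalization). Col19a1, a chain of basement membrane zones, read 7.71, 7.69 and 8.12 on low salt and 7.39, 7.63 and 7.63 on high salt, with no overlap. It was lower by -0.29 ± 0.15 (limma, unadjusted p = 0.110) and by -0.37 after quantile normalization.

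Of the 7 other chains 4 were higher. The beaded filaments of collagen VI, which surround cells, had 3 chains measured. Col6a3 had the largest difference of any chain. It read 9.08, 10.69 and 9.98 on low salt and 10.23, 11.20 and 10.61 on high salt, a difference of 0.76 ± 0.46, with low salt replicate 2 inside the high salt range 0.34 without low salt replicate 1, 1.15 without replicate 2 and 0.50 without high salt replicate 2. Col6a1 read 11.47, 11.14 and 11.77 on low salt and 11.40, 11.36 and 11.58 on high salt (-0.01 ± 0.18). Col6a2 read 9.72, 8.66 and 9.06 on low salt and 8.96, 9.26 and 8.81 on high salt (-0.14 ± 0.29). The signs for Col6a1 and Col6a2 turned with 1 low salt array left out.

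Collagens XV and XVIII are basement membrane proteoglycans, and the end of XVIII is the source of endostatin. Col18a1 read 11.14, 10.71 and 11.75 on low salt and 11.99, 11.45 and 11.80 on high salt (0.55 ± 0.30), and its other probe set gave 0.45 ± 0.28. Only low salt replicate 3 lay inside the high salt range. Without that array the difference was 0.82, without low salt replicate 2 it was 0.30, and with array weights 0.16. Col15a1 read 8.34, 8.25 and 8.60 on low salt and 8.54, 8.41 and 8.78 on high salt (0.19 ± 0.15, and 0.01 after quantile normalization). The 9 remaining chains, among them the cartilage chains Col2a1, Col11a1 and Col10a1, had mean levels from 5.13 to 8.17 and differed by -0.19 to 0.20, with no unadjusted p below 0.298 (limma). Of all members 2, Col10a1 and Col11a1, lay below the lower quartile of every array.

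Chains that assemble into one molecule were set against each other on each array. The difference between 2 probe sets is no ratio of amounts, since probes differ in brightness, but its change between diets is measured. Col5a1 minus Col5a3 stood at 0.95, 2.20 and 1.94 on low salt and 2.58, 2.34 and 2.49 on high salt, a shift of 0.77 (0.40 to 1.02 with 1 array left out). Since Col5a1 was higher and Col5a3 lower on every high salt array, their difference could not overlap, and no test is given for it. The 7 pairs were chosen after the values were seen. For the other 6 the exact permutation test (two-sided) cannot go below 0.10, and all their adjusted p-values (Benjamini-Hochberg) were 0.70. That adjustment ran over 7 pairs, with Col5a1 minus Col5a3 counted. Because of how the pairs were chosen, these p-values are descriptive only. Col8a1 minus Col8a2 went from -0.66 ± 1.13 (SD, n = 3) to 0.19 ± 0.17, by 0.85 (exact permutation p = 0.40). Col4a1 minus Col4a2 shifted by 0.47 (exact permutation p = 0.30), or by 0.84 with the other Col4a1 probe set. Col6a3 minus Col6a1 shifted by 0.77 (exact permutation p = 0.30), and the other 3 pairs by -0.17 to 0.13. With other probe sets Col1a1 minus Col1a2 shifted by up to -0.68, and Col5a1 minus Col5a2 by -0.15 to 0.20.

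**Figure D4:**
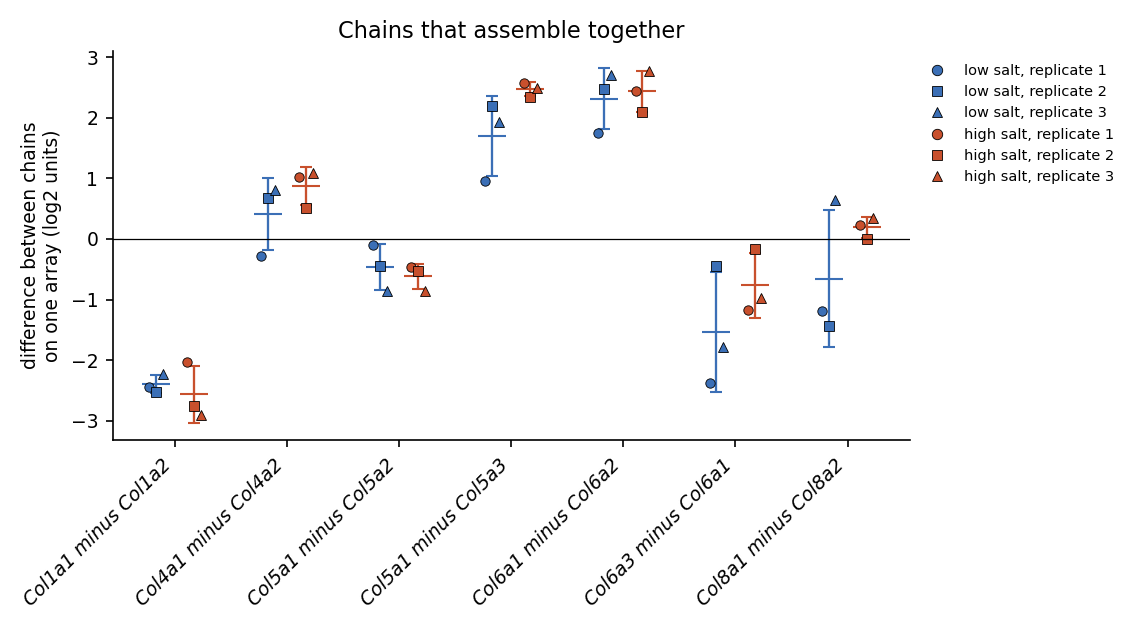
Difference between the values of 2 chains that assemble together, on each array (log2 units), for 7 pairs, blue for low salt and orange for high salt, with a symbol per replicate number; bars show the mean and SD of 3 arrays. Col5a1 minus Col5a3 runs from 0.95 to 2.20 on low salt and from 2.34 to 2.58 on high salt, and the other pairs overlap between diets.

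Other genes of the pathway were counted in groups. Of 41 measured 34 were on the higher side, with a median difference of 0.19. All genes had 60.0% there. Quantile normalization left 26, with a median of 0.04, and subtraction of the quintile medians left 22, with a median of 0.036. By limma with Benjamini-Hochberg adjustment 0 were called. At an unadjusted p below 0.05 stood 7, all higher, beside 5.72% of all genes higher and 0.711% lower. In the group for further modification and folding 8 of 10 were higher. P3h1, the prolyl 3-hydroxylase of fibrillar collagens, read 6.91, 7.18 and 7.47 on low salt and 8.09, 7.99 and 7.88 on high salt, a difference of 0.80 ± 0.16 with no overlap (limma, unadjusted p = 0.00306, adjusted p = 0.803). The prolyl isomerase Fkbp14, a partner of collagen folding, read 9.03, 9.26 and 9.16, then 9.74, 10.12 and 9.61 (0.67 ± 0.16), also without overlap. P3h3, of the prolyl 3-hydroxylase family, differed by -0.06 ± 0.52, the isomerase Fkbp10 by 0.01 ± 0.28 and Crtap, the binding partner of P3h1, by -0.11 ± 0.13.

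The other groups held fewer members at low p. Of 7 fibril-binding proteoglycans 5 were higher, with Fmod at 0.40 ± 0.15, Bgn at 0.53 ± 0.23 (0.35 without low salt replicate 2), and decorin (Dcn) at -0.56 ± 0.37. Of 4 collagen receptors 3 were higher, with Ddr2 at 0.91 ± 0.42 and Itga1 at 0.49 ± 0.35. Ddr2 was 0.46 without low salt replicate 1 and 0.56 as the mean of its probe sets. Itga1 was 0.26 without low salt replicate 2, 0.33 without replicate 1 and 0.89 without replicate 3. Of 9 collagen-cutting proteases and inhibitors 7 were higher, led by Mmp14 (0.74 ± 0.20) and Ctsk (1.03 ± 0.40, or 0.65 without low salt replicate 1). The list of inducers held TGF-beta ligands, Smads, Ccn2 and Sp1, and also Smad7, which inhibits TGF-beta signalling. All 9 were above 0, Smad7 by 0.14 ± 0.22, with Ccn2 at 1.11 ± 0.32 and Smad3 at 0.95 ± 0.39 (0.58 without low salt replicate 1), whereas Tgfb1 differed by 0.07 ± 0.16. Of propeptide-removing and cross-linking genes beyond the members 2 were measured, the dim Mep1a (0.03 ± 0.09) and Mep1b (0.01 ± 0.10), both below 0 after median centring.

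Cell markers differed between arrays as well. The 8 smooth muscle markers, all above the lower quartile of every array and all lower after high salt, averaged 11.14 to 11.94 on low salt and 11.34 to 11.49 on high salt. Their median difference was -0.11, and 0 of 8 stood at an unadjusted p below 0.05 (limma). Fibroblast markers (10 of 10 measured) averaged 11.11 to 11.71 and 11.41 to 11.83, with 8 of 10 higher. Endothelial markers (5 of 7 measured, 4 higher) averaged 10.63 to 10.79 on low salt and 11.07 to 11.15 on high salt. These averages did not overlap, but each of the 5 markers taken alone overlapped between diets. Astrocyte markers (10 of 10 measured, 9 higher) averaged 8.75, 10.42 and 8.06 on low salt replicates 1 to 3 and 10.04 to 10.49 on high salt. P4hb read 10.22, 11.59 and 11.39 on low salt replicates 1 to 3 and 11.98 to 12.06 on high salt. Neuron markers averaged 6.84 to 7.42 and 7.05 to 7.20, with 2 of 6 below the lower quartile of every array. Red blood cell markers (3 of 5 measured, all higher) averaged 10.03 to 10.22 on low salt and 10.46 to 11.18 on high salt, without overlap. Macrophage and microglia markers (5 of 7 measured, 3 higher) averaged 8.77 to 9.38 and 9.35 to 9.72. C1qa differed by 1.19 ± 0.34, Cd68 by -0.06 ± 0.31 and Itgam by -0.03 ± 0.20. Oligodendrocyte markers (4 of 5 measured, 3 higher) averaged 8.11 to 8.99 and 8.76 to 9.08, with Mbp at 1.23 ± 0.49 and Mog at -0.13 ± 0.12. Bone and cartilage markers (5 of 6 measured, 3 higher) averaged 6.77 to 7.17 and 7.11 to 7.93. Mepe (1.80 ± 0.70) and Ibsp (1.45 ± 0.64) overlapped between diets. Bglap differed by -0.07 ± 0.11, Acan by -0.09 ± 0.14 and Comp by 0.05 ± 0.11. Pericyte markers (7 of 7 measured, 4 higher) averaged 8.62 to 9.17 and 8.94 to 9.12. The part of these cells in the collagen results was not tested.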

How the data were processed

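Affymetrix rat arrays of 6 artery pools were used, 3 per diet. The deposited log2 values are RMA output, as the submitters' processing notes name it. The RMA version was not given in the sources used here. Base 2 was read from their range (4.58 to 14.34). Of 15923 probe sets, 57 controls were left out, and 15866 were fitted with limma 3.58.1 in R 4.3.3 (lmFit, eBayes, no block), with Benjamini-Hochberg adjustment over all and a threshold of 0.05. Names came from the platform annotation: 12783 probe sets had 1 symbol, 312 several (not used) and 2771 none. SDs are over 3 arrays; replicates are pools of separate rats, and their number limits the precision. Members and lists were chosen with earlier results of these data known. Values per array are given for members with no overlap, the 2 of lowest p per class and a fixed set; Col8a2 and Col4a5 were added after their values were seen, as were Dcn, Crtap, P3h3, Fkbp10, Tgfb1, Smad7 and the single markers. For pathway genes the 2 of lowest p per group are named. Pairs of chains were tested by exact permutation (scipy 1.17.1). The fit was tested on simulated data. Alternatives were 2 other scalings (median centring and quantile normalization), array weights (gene by gene), trended and robust variances, the replicate block, and each array dropped in turn. Further ones left out probe sets below the 40th percentile, averaged all probe sets of a gene, or adjusted p-values over 1 probe set per gene. Subtracting the median of the gene's brightness quintile was added after seeing the data.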

Additional observations from a re-analysis of the deposited data

How the results depend on the processing

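By limma with Benjamini-Hochberg adjustment 0 members were called in any of the 14 alternatives in which calls were counted. Against 3 members at an unadjusted p below 0.05, median centring gave 5, array weights 10, the replicate block 5, and leaving out 1 array 2 to 9 (9 without low salt replicate 2). The share of all genes there was 6.43% as reported, 18.7% with array weights and 19.99% without low salt replicate 2. Same-numbered arrays did not deviate together (correlations 0.04, -0.27 and 0.04). No label says that the numbers pair samples, and deviations from means of 3 arrays cannot decide it. Against 8 members without overlap, quantile normalization gave 4, subtracting the quintile median 5, and leaving out 1 array 9 to 15. With 1 array fewer any gene is more likely to show no overlap. The share of all genes without overlap was not counted in these settings. Against a median of 0.20, median centring gave 0.067, quantile normalization 0.016, array weights 0.051, subtracting the quintile median -0.022, and leaving out 1 array 0.11 to 0.21.

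Of 572 values of named members and pathway genes under alternatives 42 turned sign, and the cause was not tested. The filter, the trended and robust variances and the replicate block leave the difference unchanged, so their values could not turn. Counting members not named as well, 20 of 40 members turned in at least 1 setting, among them 17 of 29 chains. After median centring Col1a1 was -0.071, Col3a1 -0.078, Col4a1 -0.047, Mep1a -0.10 and Mep1b -0.12. After quantile normalization Bmp1 was -0.037, Col1a1 -0.18, Col3a1 -0.11, Col4a1 -0.13 and Pcolce -0.021. With array weights Col1a1 was -0.046, Col3a1 -0.24, Col4a1 -0.43, Col4a5 -0.15, Col8a2 0.14, Mep1b -0.00463 and Itga1 -0.14. Less the quintile median Bmp1 was -0.030, Col1a1 -0.17, Col1a2 -0.034, Col3a1 -0.21, Col4a1 -0.18, Col4a5 -0.065, Col5a1 -0.021, Pcolce -0.052 and Serpinh1 -0.032. With 1 array left out Col1a1 ran from -0.059 to 0.12, Col3a1 from -0.17 to 0.21, Col4a1 from -0.13 to 0.44, Col4a5 from -0.21 to 0.41, Col6a1 from -0.17 to 0.14, Col6a2 from -0.38 to 0.15, Serpinh1 from -0.00385 to 0.37, Mep1a from -0.00378 to 0.055 and Mep1b from -0.061 to 0.064. With 3 arrays per diet and a low salt side of wide spread, differences of the size seen in the chains could not be told from 0. After adjustment the same held for the processing genes, hydroxylases included (limma, Benjamini-Hochberg, lowest adjusted p = 0.803).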
